A study of Mus musculus with 6 samples.

Results

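Tnfrsf12a, also known as Fn14, is the receptor of the cytokine TWEAK and was followed together with its ligand Tnfsf12, the TNF receptors Tnfrsf1a and Tnfrsf1b, and the adaptors Traf2 and Traf6. Members were found through the platform's annotation as probe sets with exactly 1 gene symbol, which gave 11 of 45101 probe sets and 5 of the 6 genes. Tnfsf12 had 2 probe sets, both shared by annotation with other genes, and was therefore not analysed here. The gene list was chosen by the earlier result that Tnfrsf12a was higher with E2 on these same arrays. The values of the members are therefore given as a description, and their p-values are not read as a test.

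The arrays hold RNA of female C57BL/6 mice, all ovariectomized at 4 months of age and carrying a pellet for 60 days. The 3 OVX samples had a placebo pellet, and the 3 OVX + E2 samples had a pellet holding 0.18 mg of 17β-estradiol (E2). There was no group with intact ovaries. The sources do not say that each array had its own mouse, so p-values cover only the spread among the arrays, and this spread may be technical. The labels name left ventricle and the study names soleus as the tissue. All 8 skeletal muscle markers, such as Myh2 and Tnnt3, lay in the top 5% of probe sets by mean value. None of 6 heart markers did, which ran from percentile 29.8 for Tnni3 to 84.6 for Myl4, with Nppa at percentile 37.5 and Myh6 at percentile 66.1.

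TWEAK and TNF are cytokines that act through receptors of one superfamily. Tnfrsf12a is a small receptor without a death domain, which binds TRAF adaptors and activates NF-kappaB. In skeletal muscle it is known to be scarce at rest and to be induced by denervation and injury. On these arrays its probe sets were bright as deposited, at percentile 96.85 (1418571_at) and 96.32 (1418572_x_at) of mean value. Their means were already 10.03 and 9.88 in the OVX group. Heights of different probe sets are not comparable, so the abundance of the transcript was not tested. TWEAK signalling is known for its part in muscle wasting. TNF binds Tnfrsf1a, which carries a death domain and recruits Tradd, and Tnfrsf1b, which binds Traf2 directly. Traf6 is a ubiquitin ligase that serves other receptors, among them those of interleukin-1.

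The bases before the start of Tnfrsf12a are shown because the study searched promoters of other genes that it had selected for estrogen response elements (EREs), the palindromes that estrogen receptors bind. The 250 bases before its start lie at chr17:23677450-23677699 (minus strand, RefSeq, GRCm38.p6), and capitals mark GC boxes, the binding site of Sp1 family factors (GGGCGG on either strand).

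Tnfrsf12a: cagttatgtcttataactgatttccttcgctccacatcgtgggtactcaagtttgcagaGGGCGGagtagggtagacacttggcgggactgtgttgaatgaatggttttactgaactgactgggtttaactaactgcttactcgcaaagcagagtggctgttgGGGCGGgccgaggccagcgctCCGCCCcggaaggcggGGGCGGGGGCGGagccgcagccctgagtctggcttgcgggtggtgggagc

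This stretch held 5 GC boxes, the last 2 of them adjoining, and at least 1 was found in 32.7% of all 32851 windows of the same length. The share of windows with 5 or more was not computed. Searches on both strands found no full ERE (GGTCA and TGACC separated by 3 bases), no ERE half-site (GGTCA), no AP-1 site (TGANTCA), no NF-kappaB site and no serum response element. The shares of all windows with a match were 0.0639%, 35.2%, 6.75%, 7.25% and 1.47%, in the same order. Of the 5 genes with a window, none held any of these 5 motifs. Traf6 and Tnfrsf1b held 2 GC boxes each, and Tnfrsf1a and Traf2 held none. These are matches of letters in a short window and say nothing about binding or about sites farther away. The study searched longer stretches and called EREs by a predicted binding affinity. Its EREs and the matches given here are therefore not comparable.

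Tnfrsf12a (chromosome 17, 23675445 to 23677449, in the same build as all positions given) was higher in OVX + E2 in both of its probe sets, by 1.34 and 1.32 times. The first probe set, 1418571_at, read 10.003, 10.11 and 9.98 on the OVX arrays against 10.31, 10.55 and 10.51 on the OVX + E2 arrays, on the deposited log2 scale and in the order of replicates 1, 2 and 3, as in all values below. The second, 1418572_x_at, read 9.89, 9.92 and 9.81 on the OVX arrays against 10.12, 10.41 and 10.28 on the OVX + E2 arrays. Every OVX + E2 array lay above every OVX array, and the gap between the lowest OVX + E2 value and the highest OVX value was 0.20 and 0.21. The group means were 10.03 ± 0.071 and 10.45 ± 0.13 for the first and 9.88 ± 0.054 and 10.27 ± 0.14 for the second probe set (SD, n = 3 each). OVX + E2 replicate 1 was the lowest of its group in both.

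The log2 difference of OVX + E2 minus OVX was 0.42 (standard error 0.071) for the first and 0.40 (standard error 0.074) for the second probe set of Tnfrsf12a, from limma fitted to all probe sets. The Benjamini-Hochberg adjusted p from limma was 0.308 for each. Both probe sets were designed from the same transcript, and the letter x in the name of the second marks probes that can also match other transcripts, so they are not independent measurements of the gene. The first stood above the second by 0.11 to 0.23 on the 6 arrays. Both lay at or under the study's unadjusted p of 0.001, which 0.0155% of all probe sets did with a higher value in OVX + E2, but this was the comparison on which the gene had been chosen. The members held 2 of these 7 probe sets, and none of the 89 that were lower. The balance over all probe sets was 7 higher and 89 lower as deposited and 17 higher and 14 lower after cyclic loess, and the 7 became 0 without OVX replicate 3 and 1 without OVX replicate 1, OVX + E2 replicate 2 or OVX + E2 replicate 3.

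**Figure D1:**
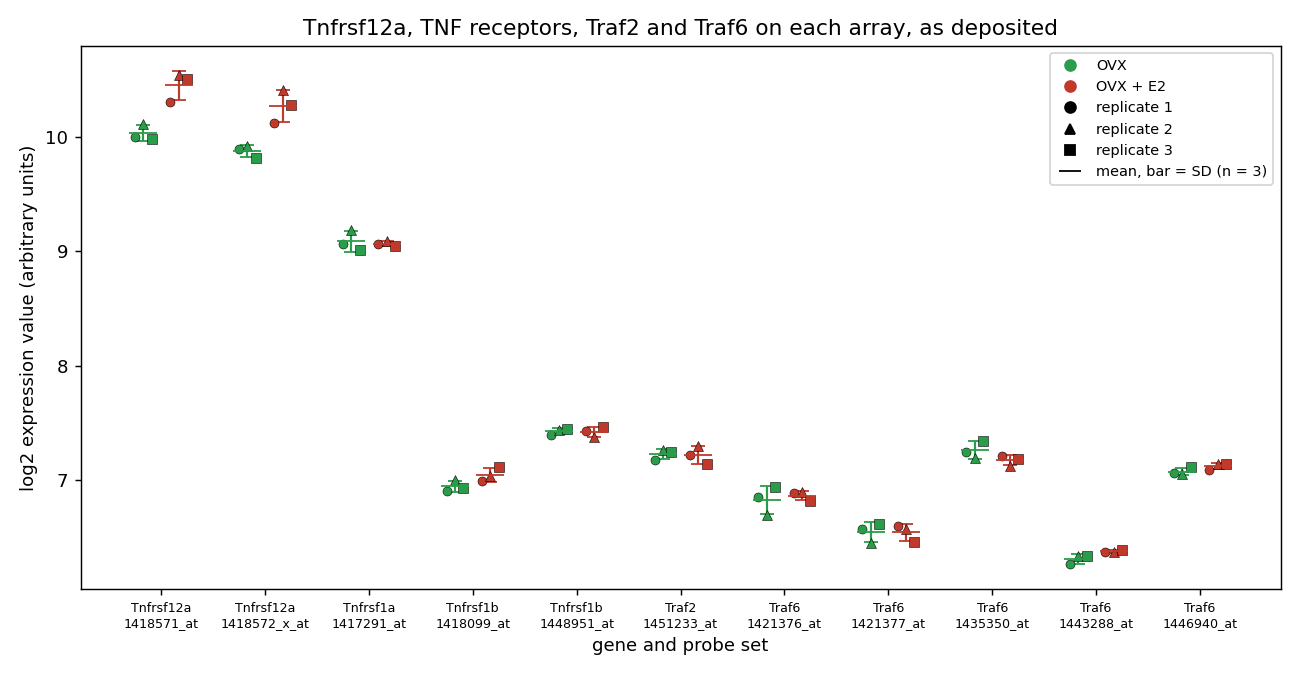
The 11 member probe sets (horizontal axis) with their deposited log2 values (vertical axis, arbitrary units) on every array. OVX is drawn in green, OVX + E2 in red, with a symbol for each replicate number and the mean and SD of each group (n = 3) as bars. Heights of different probe sets are not comparable. In both probe sets of Tnfrsf12a all OVX + E2 arrays lie above all OVX arrays, by at least 0.20 and 0.21, and in 8 of the other 9 probe sets the groups overlap.

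The difference of Tnfrsf12a ran against that of other transcripts of like brightness. Among the 1218 probe sets with a mean within 0.5 of that of 1418571_at, the median log2 difference was −0.16, and among the 1385 probe sets near 1418572_x_at it was also −0.16. After cyclic loess, which evens out such a dependence on brightness between arrays, these medians were −0.01 each and the differences of Tnfrsf12a were 0.57 (standard error 0.081) and 0.54 (standard error 0.079), or 1.48 and 1.46 times. The values of 1418571_at after cyclic loess were 9.92, 10.07 and 9.89 without E2 and 10.37, 10.60 and 10.62 with it, and those of 1418572_x_at were 9.81, 9.88 and 9.72 without and 10.18, 10.47 and 10.39 with it. The groups stayed apart, by 0.30 and 0.31. The share of all probe sets at 0.001 with a higher value in OVX + E2 was 0.0377% after cyclic loess, again with both probe sets of Tnfrsf12a among them. The adjusted p of each Tnfrsf12a probe set from limma was then 0.652. Relative to probe sets of like brightness, the difference was 0.58 and 0.55 as deposited and 0.58 and 0.55 after cyclic loess.

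OVX replicate 3 and OVX + E2 replicate 3 stood at opposite ends for fast-fibre genes. The mean value of 8 fast-fibre genes was 13.6 on OVX replicate 3, 10.7 on OVX + E2 replicate 3 and 12.3 to 12.9 on the other arrays. OVX replicate 3 was the lowest array for both probe sets of Tnfrsf12a as deposited, at 9.98 and 9.81, and OVX + E2 replicate 3 was the second highest, at 10.51 and 10.28. After cyclic loess 1418571_at was lowest on OVX replicate 3, at 9.89, and highest on OVX + E2 replicate 3, at 10.62, the reverse of the order of the fast-fibre genes at both ends. The other probe set, 1418572_x_at, was then also lowest on OVX replicate 3, at 9.72. It was highest on OVX + E2 replicate 2, at 10.47, as both probe sets were as deposited. Without both arrays numbered 3, an alternative chosen after seeing the data, the log2 differences of Tnfrsf12a were 0.37 (standard error 0.088) and 0.36 (standard error 0.094). With 2 arrays a group neither reached 0.001. The part of fibre type in the level of Tnfrsf12a was not tested.

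Tnfrsf1a, the widely expressed TNF receptor with a death domain (chromosome 6, 125349723 to 125362483), overlapped between the groups. It read 9.07, 9.19 and 9.01 on the OVX arrays against 9.06, 9.09 and 9.04 on the OVX + E2 arrays as deposited, a log2 difference of −0.02 (standard error 0.053). OVX replicate 2 was the highest of all arrays, and the OVX + E2 arrays lay within the range of the OVX arrays. After cyclic loess the direction turned and the log2 difference was 0.11 (standard error 0.063), still with overlap. The median log2 difference of probe sets of like brightness was −0.14 as deposited. After quantile normalization the log2 difference of Tnfrsf1a was 0.13 (standard error 0.067).

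Tnfrsf1b, the second TNF receptor (chromosome 4, 145212368 to 145246870), had 2 probe sets that did not give the same picture. The probe set 1418099_at read 6.905, 6.996 and 6.93 on the OVX arrays against 6.99, 7.03 and 7.11 on the OVX + E2 arrays, a log2 difference of 0.10 (standard error 0.047). Its groups overlapped by 0.003, through OVX replicate 2 and OVX + E2 replicate 1. The probe set 1448951_at read 7.39, 7.43 and 7.44 on the OVX arrays against 7.43, 7.37 and 7.46 on the OVX + E2 arrays, a log2 difference of −0.005 (standard error 0.040). Here the arrays of both groups were mixed, and the lowest value belonged to an OVX + E2 array. With cyclic loess the 2 probe sets differed by 0.08 (standard error 0.046) and 0.01 (standard error 0.042).

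Traf2, the adaptor and ubiquitin ligase scaffold that binds both TNF receptor complexes and Tnfrsf12a (chromosome 2, 25517982 to 25546940), showed no separation. It read 7.18, 7.26 and 7.24 on the OVX arrays against 7.22, 7.29 and 7.14 on the OVX + E2 arrays, so the highest and the lowest value both came from OVX + E2. The log2 difference was −0.008 (standard error 0.050) as deposited and −0.01 (standard error 0.048) after cyclic loess.

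Traf6 (chromosome 2, 101678420 to 101701668) was read by 5 probe sets, whose log2 differences ran from −0.09 to 0.07. The brightest, 1435350_at, read 7.25, 7.19 and 7.34 on the OVX arrays against 7.21, 7.12 and 7.18 on the OVX + E2 arrays, a log2 difference of −0.09 (standard error 0.051) as deposited and −0.09 (standard error 0.053) after cyclic loess, with overlap. The dimmest, 1443288_at, read 6.26, 6.33 and 6.33 on the OVX arrays against 6.37, 6.37 and 6.39 on the OVX + E2 arrays. Its groups did not overlap, by a gap of 0.04, and its log2 difference was 0.07 (standard error 0.038) as deposited and 0.05 (standard error 0.037) after cyclic loess. It lay at percentile 15.9 of mean value. The other 3 had log2 differences of 0.04, −0.0002 and 0.05 as deposited (standard errors 0.066, 0.060 and 0.038), with overlap in each. No common direction was seen over the probe sets of this gene.

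Over the members as deposited, 3 of 11 probe sets were without overlap and higher in OVX + E2 and 0 were without overlap and lower. Over all probe sets these shares were 9.76% and 11.4%. After cyclic loess the counts were again 3 and 0, where all probe sets gave 7.62% and 6.84%. Since 2 of the 3 were the probe sets of Tnfrsf12a, for which the list was chosen, nothing is read from these counts. The median log2 difference of the 11 was 0.04 as deposited and 0.03 after cyclic loess, and that of all probe sets was −0.005 and −0.002.

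**Figure D2:**
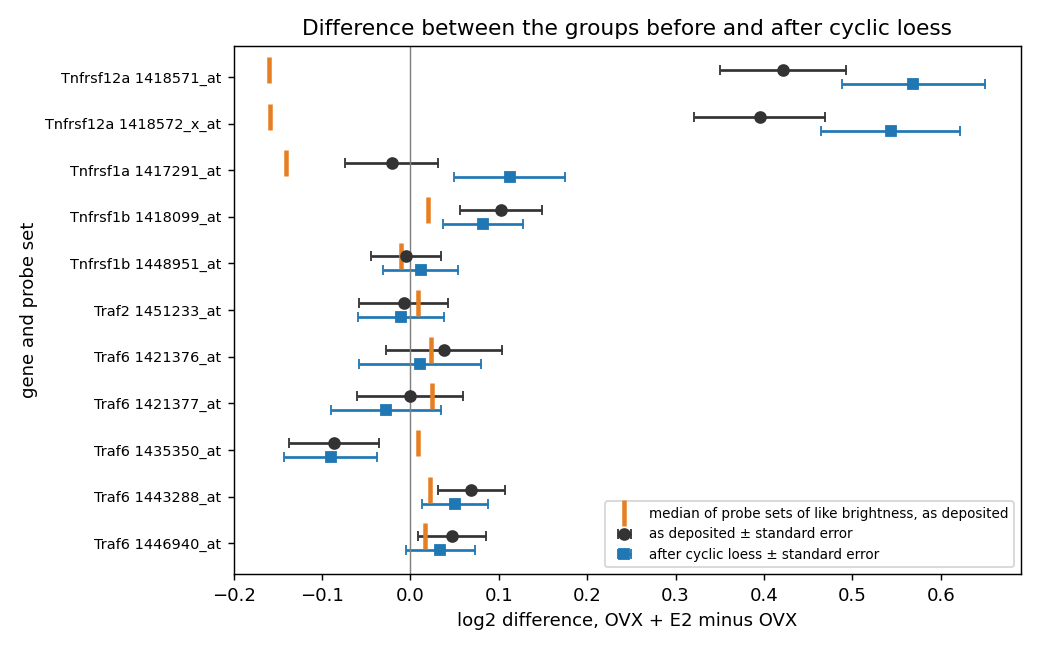
Log2 difference of OVX + E2 minus OVX (horizontal axis) for the 11 member probe sets (vertical axis), as deposited in black and after cyclic loess in blue with standard errors, and the median difference of probe sets of like brightness as deposited in orange. Tnfrsf12a lies at 0.42 and 0.40 as deposited and at 0.57 and 0.54 after cyclic loess, while the other members lie between −0.09 and 0.11 in both settings.

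Of 24 other receptors of the TNF receptor superfamily none passed at an unadjusted p of 0.001 from limma, as deposited or after cyclic loess, and the smallest Benjamini-Hochberg adjusted p was 0.323. At an unadjusted p under 0.05, 2 were higher and 1 lower in OVX + E2, where all genes gave 6.01% and 13%. After cyclic loess the counts were 2 (Edar and Relt) and 1 (Tnfrsf21), where all genes gave 4.6% and 5.06%. Relt then had a log2 difference of 0.11 (standard error 0.041), and Ngfr was no longer under 0.05. Tnfrsf21, a receptor with a death domain, read 7.71, 8.04 and 8.10 on the OVX arrays against 7.74, 7.63 and 7.56 on the OVX + E2 arrays, a log2 difference of −0.31 (standard error 0.10, adjusted p = 0.323 from limma). Its groups overlapped through OVX replicate 1. Ngfr, the neurotrophin receptor, differed by 0.14 (standard error 0.052) and Edar, the ectodysplasin receptor, by 0.10 (standard error 0.043), both at low values. The median log2 difference of the list was 0.02, and that of all 18193 genes was −0.01.

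Of 14 measured TNF family ligands 13 had a log2 difference above 0 as deposited, beside 8375 of 18193 genes in all, and the median of all probe sets with a mean value of 6 to 7 was 0.02 and of those at 8 to 9 −0.12. At an unadjusted p under 0.05, 2 ligands were higher and 0 lower (6.01% and 13% of all genes), namely Tnfsf4 (OX40 ligand) with a log2 difference of 0.12 (standard error 0.048) and Tnfsf9 (4-1BB ligand) with 0.11 (standard error 0.045). The ligand list had a median log2 difference of 0.06 as deposited and 0.04 after cyclic loess, where none remained under 0.05. After cyclic loess 12 of the 14 ligands were above 0, beside 8950 of 18193 genes in all. Of 27 measured adaptors and proteins of the receptor complexes, 8 were above 0, and 2 were higher and 4 lower at an unadjusted p under 0.05 (6.01% and 13% of all genes). After cyclic loess 0 were higher and 1 lower (4.6% and 5.06% of all genes). The 1 lower was Tab1, with a log2 difference of −0.12 (standard error 0.051), and the genes described next were under 0.05 as deposited only. Tab2, which links ubiquitin chains to the kinase Map3k7, read 9.49, 9.52 and 9.84 on the OVX arrays against 9.41, 9.27 and 9.24 on the OVX + E2 arrays, a log2 difference of −0.31 (standard error 0.10). Map3k7 itself, also known as TAK1, read 8.60, 8.81 and 8.76 on the OVX arrays against 8.60, 8.43 and 8.51 on the OVX + E2 arrays, a log2 difference of −0.21 (standard error 0.068). Rbck1, a part of the linear ubiquitin ligase, differed by −0.17 (standard error 0.049). Tab2, Map3k7 and Rbck1 stood at −0.17, −0.10 and −0.07 once cyclic loess was applied. The adaptors Traf1 and Traf4, both dim, differed by 0.12 (standard error 0.045) and 0.11 (standard error 0.038) as deposited. None of these genes passed at 0.001, and the smallest adjusted p from limma was 0.344 among the ligands and 0.308 among the adaptors.

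Of 9 measured NF-kappaB subunits, inhibitors and kinases, 3 were lower at an unadjusted p under 0.05 as deposited (13% of all genes) and none after cyclic loess (5.06% of all genes). Nfkbia, which encodes the inhibitor IkappaB alpha and is itself a target of NF-kappaB, read 9.45, 9.87 and 9.71 on the OVX arrays against 9.43, 8.97 and 9.18 on the OVX + E2 arrays. All OVX + E2 arrays were below all OVX arrays, narrowly so for replicate 1 of each group. Its log2 difference was −0.48 (standard error 0.14, adjusted p = 0.309 from limma) as deposited and −0.34 (standard error 0.14) after cyclic loess. Rela, a subunit with an activation domain, differed by −0.16 (standard error 0.057) and Nfkbib by −0.17 (standard error 0.061). Their cyclic loess values were −0.04 and −0.06. Relb and Nfkb2, the subunits of the noncanonical branch that Tnfrsf12a is known to engage, differed by −0.03 (standard error 0.063) and −0.11 (standard error 0.065). The median log2 difference of the list went from −0.13 to −0.05 with cyclic loess, and it was −0.07 when OVX replicate 2 was left out, −0.08 when OVX + E2 replicate 3 was, and −0.05 with the brightest probe set per gene, where that of the adaptors was also −0.05. The study chose Nfkbia on these arrays for a follow-up, so its direction here is not independent evidence.

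Of 15 measured genes known to act downstream of TWEAK or TNF in muscle, 0 were under an unadjusted p of 0.05 as deposited, where all genes gave 6.01% higher and 13% lower. After cyclic loess 1 was, Hk2 (hexokinase 2), which was higher by a log2 difference of 0.11 (standard error 0.047), where all genes gave 4.6% and 5.06%. The ubiquitin ligase Trim63 (MuRF1) ranged from 10.27 to 11.18 in OVX and from 10.26 to 10.82 in OVX + E2, with overlap. The ligase Fbxo32 (atrogin-1) ranged from 9.59 to 10.12 in OVX and from 9.16 to 9.94 in OVX + E2, also with overlap. Mmp9, a matrix protease, differed by 0.09 (standard error 0.044) and Ccl2, a chemokine, by 0.07 (standard error 0.061). The median log2 difference was 0.01 as deposited and 0.02 after cyclic loess. The list was not split by the direction in which TWEAK or TNF moves each gene, so its median does not measure their signalling.

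Genes of denervated and regenerating muscle, and genes induced by growth factors or injury as Tnfrsf12a is, were described beside it. Of 15 denervation and regeneration genes, none was under an unadjusted p of 0.05 in either setting. Chrna1, a subunit of the acetylcholine receptor that rises after denervation, read 9.52, 9.44 and 9.08 on the OVX arrays against 9.46, 9.55 and 9.41 on the OVX + E2 arrays, a log2 difference of 0.13 (standard error 0.11) as deposited and 0.27 after cyclic loess. Myog and Myh3, known from regenerating fibres, differed by 0.003 (standard error 0.082) and −0.001 (standard error 0.28). Of 15 growth factor and injury inducible genes, 1 was lower at an unadjusted p under 0.05 as deposited and none after cyclic loess. That gene was Srf, the serum response factor, with a log2 difference of −0.21 (standard error 0.063) as deposited and −0.10 (standard error 0.065) after cyclic loess. Over all 7 lists 6 of 119 measured genes were higher and 9 lower under 0.05 as deposited, and 3 and 2 after cyclic loess. The shares of all genes were 6.01% and 13% as deposited and 4.6% and 5.06% after cyclic loess.

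**Figure D3:**
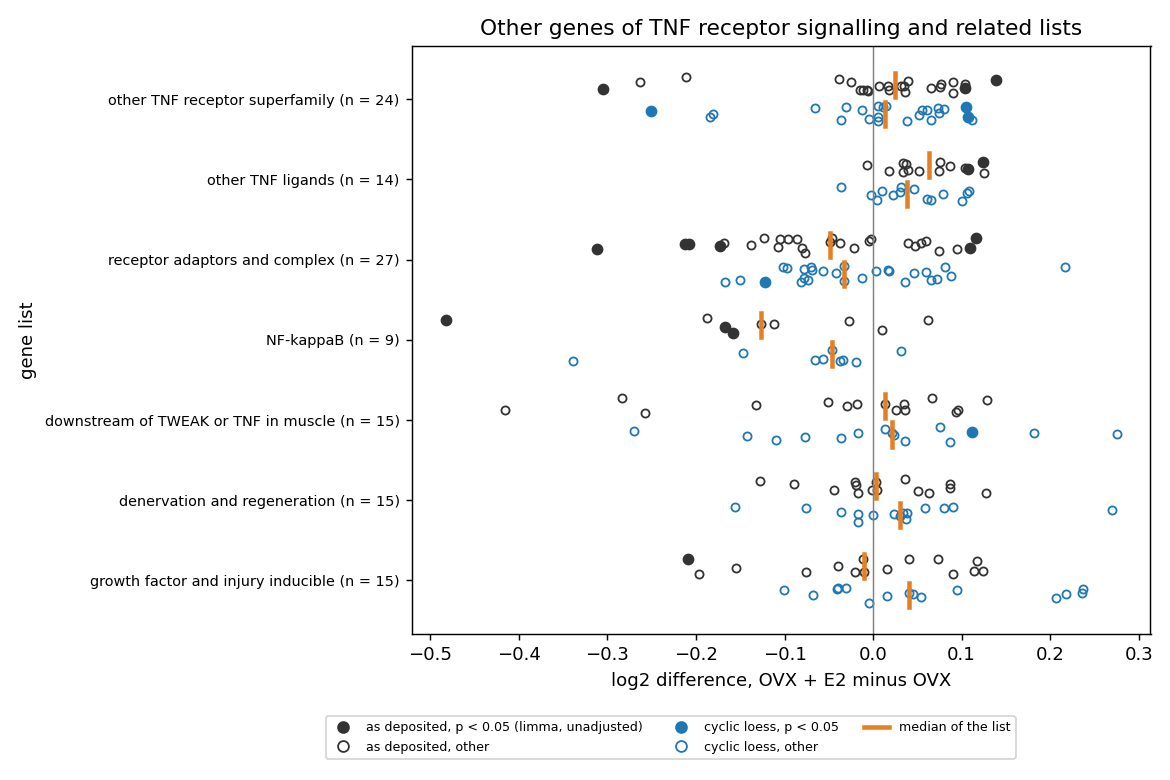
Log2 difference of OVX + E2 minus OVX (horizontal axis) of each measured gene in 7 lists (vertical axis), as deposited in black and after cyclic loess in blue, with filled points at an unadjusted p under 0.05 from limma and the median of each list in orange. The median of the NF-kappaB list is −0.13 as deposited and −0.05 after cyclic loess, and no gene of any list exceeds 0.28.

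Markers of other cells that express TNF receptors were compared on the same arrays, and in bulk tissue fewer cells of a type and less RNA per cell cannot be told apart. The mean value of 8 macrophage markers ranged from 7.38 to 7.57 in OVX and from 7.40 to 7.54 in OVX + E2, with 5 of 8 lower and 3 higher. That of 6 endothelial markers ranged from 8.09 to 8.63 in OVX and from 8.11 to 8.32 in OVX + E2, and that of 5 satellite cell markers from 6.94 to 7.03 and from 6.95 to 6.97. For these 3 lists the groups overlapped, although all 6 endothelial markers were lower as deposited, with a mean log2 difference of −0.12. After cyclic loess that mean was −0.03, and Kdr, Tek and Tie1 were higher while Pecam1, Cdh5 and Cldn5 were lower. The mean of 7 measured T and B cell markers ranged from 7.02 to 7.07 in OVX and from 7.07 to 7.10 in OVX + E2, barely overlapping, and all 7 were higher as deposited, with a mean log2 difference of 0.05. After cyclic loess the mean was also 0.05, but Ms4a1 was lower, at −0.03. The mean of 6 fibroblast markers ranged from 9.34 to 9.78 in OVX and from 9.18 to 9.46 in OVX + E2, all 6 lower as deposited, with a mean log2 difference of −0.28 as deposited and −0.16 after cyclic loess. The groups overlapped for this list too. The direction of the fibroblast markers was opposite to that of Tnfrsf12a. The median log2 difference of all probe sets with a mean value of 9 to 10 was −0.15 as deposited and −0.008 after cyclic loess. The part of these cells in the level of Tnfrsf12a was not tested.

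The genes with a pattern most like that of Tnfrsf12a over the 6 arrays, among 2545 probe sets brighter than the median that ranged over at least 0.5, were Rbbp4, Gsk3b, Dab2ip, Cish, Ppbp and Cyp1a1. Their Pearson correlation with the mean of the Tnfrsf12a probe sets ran from 0.85 for Rbbp4 to 0.81 for Cyp1a1, across arrays that share the difference between the groups, and it is given as a description. Rbbp4, a histone-binding chromatin protein, read 7.995, 8.15 and 7.76 on the OVX arrays against 8.26, 8.45 and 8.18 on the OVX + E2 arrays. Its groups did not overlap. Gsk3b, a kinase of insulin and Wnt signalling, read 9.09, 9.38 and 9.05 on the OVX arrays against 9.38, 9.67 and 9.34 on the OVX + E2 arrays, and its groups overlapped. Dab2ip, a GTPase-activating protein known to bind Traf2, read 7.70, 8.07 and 7.54 on the OVX arrays against 8.14, 8.18 and 8.17 on the OVX + E2 arrays. Cish, an inhibitor of cytokine receptor signalling, read 8.22, 8.04 and 8.07 on the OVX arrays against 8.52, 8.68 and 8.31 on the OVX + E2 arrays. In both the OVX + E2 arrays were all above the OVX arrays. Cyp1a1 read 7.12, 7.31 and 7.01 on the OVX arrays against 7.34, 8.45 and 7.39 on the OVX + E2 arrays. Its groups did not overlap, though narrowly so, and OVX + E2 replicate 2 stood far above all other arrays. Ppbp overlapped between the groups. After cyclic loess the correlations ran from 0.76 for Cyp1a1 to 0.91 for Gsk3b.

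**Figure D4:**
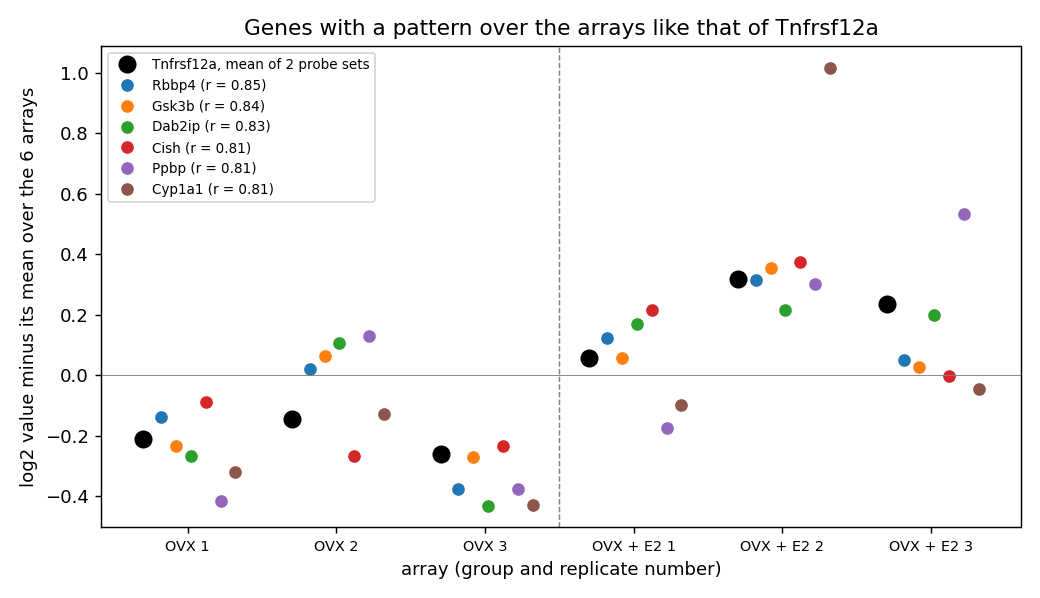
Deposited log2 value minus its mean over the 6 arrays (vertical axis) on each array (horizontal axis) for Tnfrsf12a, as the mean of 2 probe sets, and for the 6 genes whose pattern was most like it by Pearson correlation. Tnfrsf12a lies below 0 on the 3 OVX arrays and above 0 on the 3 OVX + E2 arrays. Cyp1a1 lies above 0 on OVX + E2 replicate 2 alone, whose value raises its mean over the 6 arrays. Its other OVX + E2 arrays still lie above all OVX arrays.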

How the data were processed

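RNA of 6 samples was measured on 1 Affymetrix array each. Background correction, VSN (a variance stabilizing normalization) and a median polish summary had been run by the authors in R 2.14.2, giving the deposited log2 values (arbitrary units), a scale that compresses differences of dim probe sets. The number of arrays limits the precision. Members and gene lists were chosen with earlier results of these data known. All 45101 probe sets were fitted with limma 3.58.1 in R 4.3.3 (two-sided, no covariate), with the study's unadjusted threshold of 0.001 and Benjamini-Hochberg adjustment over all probe sets. The fit was tested on simulated data. Lists used the single-symbol probe set with the largest interquartile range per gene (18193 genes). Named from each list were up to 3 genes per direction with the smallest p under 0.05 as deposited. Also named were Relt, Tab1, Relb, Nfkb2, Trim63, Fbxo32, Mmp9, Ccl2, Hk2, Chrna1, Myog and Myh3, which were chosen after their values were seen. Cyclic loess (3 iterations) was run beside the deposited values. Other alternatives were quantile normalization, median centring, a replicate block, a variance that depends on intensity, a filter on dim probe sets, another probe set per gene and leaving out arrays.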

Additional observations from a re-analysis of the deposited data

How the results depend on the processing

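In all alternatives run both probe sets of Tnfrsf12a kept a higher mean in OVX + E2. Their log2 differences were 0.57 and 0.54 with cyclic loess, 0.59 and 0.57 with quantile normalization and 0.40 and 0.38 with median centring. Leaving out 1 array at a time gave 0.37 to 0.49 for 1418571_at, which stayed at 0.001 without OVX replicate 2 or OVX + E2 replicate 1 (2 of 6 fits), and 0.33 to 0.47 for 1418572_x_at, which did so without OVX + E2 replicate 1 alone (1 of 6 fits). Neither was at 0.001 with an intensity trend of the variance. With median centring 1418571_at was at 0.001 and 1418572_x_at was not. The deviations of same-numbered arrays from their group means correlated at −0.125, −0.2 and −0.342. Arrays of different numbers were not compared in this way, so these values do not settle whether the replicate numbers pair the arrays. With the replicate block the count of all probe sets at 0.001 went from 96 to 21, and 1418571_at was among them while 1418572_x_at was not. That count was 31 after cyclic loess, 31 after quantile normalization, 164 after median centring, 39 with an intensity trend, 30 among probe sets brighter than the median, 37 without both arrays numbered 3 (chosen after seeing the data), and 19 (without OVX + E2 replicate 3) to 76 (without OVX replicate 3) when leaving out 1 array. The 7 of them that were higher became 17 with cyclic loess, 22 with quantile normalization, 2 with median centring, 3 with the replicate block, 18 with an intensity trend, 0 without both arrays numbered 3 and 0 to 6 when leaving out 1 array. Of the 7 gene lists only the receptor list had a gene at 0.001 in any alternative run, with 0 to 1 genes when leaving out 1 array, namely Tnfrsf21 without OVX replicate 1 (−0.43). Counts of list genes under an unadjusted p of 0.05, 15 in all as deposited, are small, and 39 of their recomputed values moved by over 1.5 times while 52 did not. The causes of these shifts were not tested.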
